A study of Mus musculus with 2 samples.

Results

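The cytosines described here are CG cytosines of E14 mouse embryonic stem cells that gathered many AbaSI reads while the cytosine on the other strand of the same CG was not listed at all. They were chosen from the deposited table of the series by 4 conditions. The cytosine lay on chromosomes 1 to 19, was listed as CG in the class 1CG or CGCH, carried at least 30 reads and no more than a fixed upper limit, and its opposite-strand partner had no entry in any class. Reads between these limits are called the read range here. In all, 155642 cytosines met the conditions, which is 1.19% of the 13025343 listed cytosines and 2.83% (95% interval 2.82 to 2.84) of the 5501288 autosomal CG dyads listed on 1 strand. Reads and strand listing chose these members, so both are given below as description and support no test.

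CG is its own complement, so each CG site holds a cytosine on either strand, and together they form a dyad. DNMT1 restores methylation on the new strand after replication, and the TET enzymes oxidise 5-methylcytosine to 5-hydroxymethylcytosine (5hmC). Oxidation acts on single cytosines, so a dyad can carry 5hmC on both strands or on 1. Embryonic stem cells express TET enzymes and carry 5hmC across much of the genome. AbaSI cuts on the 3′ side of glucosylated 5hmC, so the plus-strand and minus-strand cytosines of a dyad direct the cut to opposite sides of the CG. The enzyme is known to prefer sites where a second cytosine on the other strand faces the first across the cut.

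The series consists of 2 libraries, labelled as replicates 1 and 2 of 1 group of E14 cells at passage 12, with no treated, mutant or unglucosylated sample. E14 is an established cell line, and nothing in the labels says that the libraries came from separate cultures. The table gives 1 read count per cytosine for both libraries together, with 176006227 reads in all, so no replicate error exists and no test between samples was possible. Below, intervals are exact Clopper-Pearson intervals at 95%, which cover counting error only, and the spread over the 19 autosomes is given beside them. A cytosine without an entry is not a measured 0, because the sources used here do not state the authors' minimum for listing. The lowest listed count was 2.

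The members were compared with 566076 cytosines of the same classes within the read range whose partner was listed, called both-strand cytosines here. They were also compared with 4822053 cytosines of the same classes that were listed on 1 strand with fewer than 30 reads, called low 1-strand cytosines. Members and both-strand cytosines were alike in median reads, with 37 and 38, and in mean reads, with 42.7 and 42.2. The quartiles of the members were 32 and 46 reads. The 95th percentile was 75 reads in members and 69 in both-strand cytosines, so the upper tails differed. At the lower limit, 14818 cytosines with 30 reads were listed on 1 strand, and 17058 with 29 reads lay just outside. At the upper limit there were 29, and 19 had 1 read more than the limit allows.

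Of the 721718 CG cytosines of these classes in the read range, 21.6% (21.5 to 21.7) had no listed partner. Counted with each dyad once, the share was 23.8%. Of all 8793027 autosomal dyads, at any read count and with the class 2CG included, 62.6% (62.5 to 62.6) were listed on 1 strand. Where the partner was listed, it carried a median of 19 reads, with quartiles of 11 and 31, and 26.8% of the partners had 30 reads or more. Low partner counts were scarce. Partners with 2 reads numbered 4597, those with 3 reads 8880, those with 4 reads 12156 and those with 5 reads 15281, and the most frequent count was 11. The 40914 partners with 2 to 5 reads made up 7.23% (7.16 to 7.30) of the listed partners. Cytosines with no listed partner were 3.804 times as many. The number without a listed partner thus stood far above the lower tail of the listed counts. Whether the authors' rule for listing or assigning reads gives this gap was not tested.

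**Figure D1:**
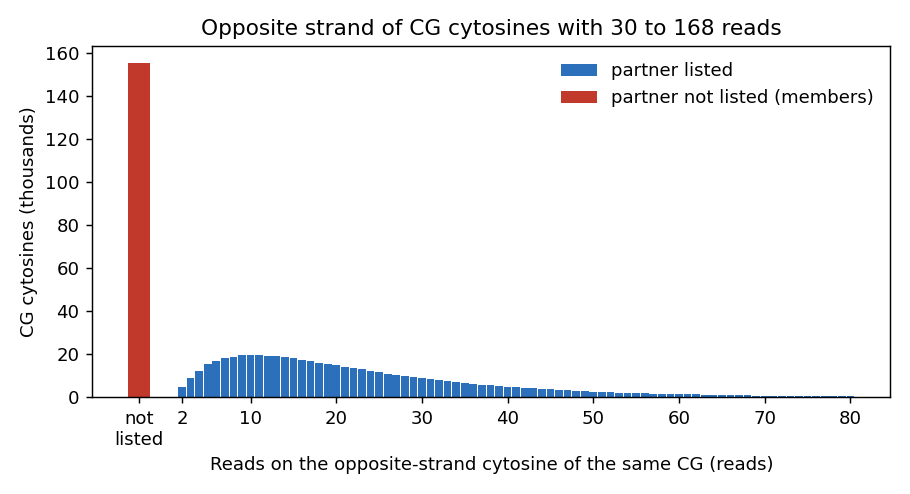
Number of CG cytosines (vertical axis, divided by 1000) by the reads on their opposite-strand partner (horizontal axis, reads), for autosomal CG cytosines of the classes 1CG and CGCH in the read range. The red bar holds the 155642 members with no listed partner, and the blue bars, shown up to 80 reads, reach their highest point at 11 reads.

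Pooled over the autosomes, the share listed on 1 strand was lowest in the middle of the read range. It was 60.8% among cytosines with 2 to 4 reads, 42.1% with 10 to 14 reads and 28.1% with 20 to 29 reads. Within the members' range it was 23.05% (22.9 to 23.2) at 30 to 34 reads and 19.1% (18.8 to 19.4) at 50 to 59 reads. From there it was higher again, with 24.7% (23.99 to 25.5) at 80 to 99 reads, 33.95% (32.8 to 35.1) from 100 to below 130 and 42.03% (40.3 to 43.8) at 130 reads or more. In the pooled counts, the cytosines with the most reads in the range were thus listed on 1 strand about as often as those with 10 to 14 reads. Over single autosomes the share ran from 22.8% to 60% at 130 reads or more, and from 35.2% to 44.6% at 10 to 14. The lowest share of any autosome was 13.5% at 50 to 59 reads and 12.2% at 80 to 99. The rise between these counts was therefore not found on every autosome. The median count of listed partners, also pooled, turned later than the pooled share. It was 17 reads at 30 to 34, 21 at 50 to 59, 23 at 60 to 79 and 24 at 80 to 99, and then 20 from 100 to below 130 and 14 at 130 or more. Without chromosomes 8 and 11, which are the most densely listed, the share was 21.5% at 50 to 59 reads and 49.1% at 130 or more. Without 100 kb windows in which CH cytosines made up more than 20% of the sites, these shares were 18.9% and 43.2%.

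**Figure D2:**
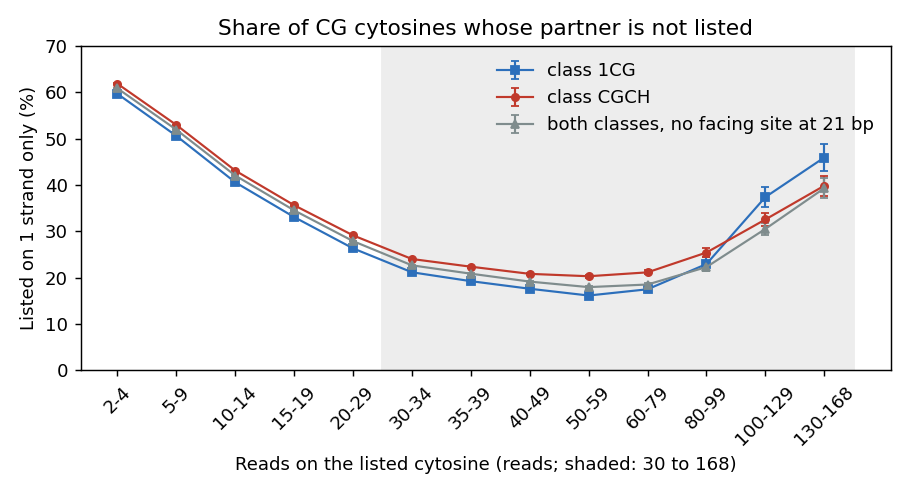
Percent of autosomal CG cytosines whose partner was not listed (vertical axis) by their own reads (horizontal axis), for the class 1CG, the class CGCH, and both classes without cytosines that have a facing site at 21 bp. Bars are exact 95% intervals, the shaded part is the read range, and each line is lowest at 50 to 59 reads.

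The class codes of the table split the members unevenly. CGCH, a code that the sources used here do not explain, held 111416 members or 71.6% (71.4 to 71.8), and 1CG held 44226. The CGCH share was 67.8% among both-strand cytosines and 59.5% among low 1-strand cytosines. It was higher in members than in either group on 19 of 19 autosomes, where the members' share ranged from 70.2% to 73.8%. Seen the other way, 22.5% (22.4 to 22.6) of CGCH cytosines in the read range were listed on 1 strand, compared with 19.5% (19.4 to 19.7) of 1CG cytosines, and CGCH was higher on 19 of 19 autosomes. This order was turned at the highest counts. At 130 reads or more, 45.9% (42.99 to 48.8) of 1CG and 39.8% (37.7 to 41.99) of CGCH cytosines were listed on 1 strand. Both genome strands were used about equally, and 49.9% (49.7 to 50.2) of the members were plus-strand cytosines.

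The surroundings of the members were read in the direction of the listed cytosine, 5′ to 3′ on its own strand. The offset with the highest share of members was a listed cytosine on the opposite strand 21 bp downstream, called a facing site here because the cut sides of both cytosines point towards each other. A facing site at this distance was listed for 13874 members or 8.91% (8.77 to 9.06). It was listed for 4.79% of both-strand cytosines and for 0.621% of low 1-strand cytosines. The members' share was the highest of the 3 groups on 19 of 19 autosomes, and it ranged from 6.42% on chromosome 11 to 10.4% on chromosome 13. As a level for comparison, the mean share of members with an opposite-strand site was 0.903% at each offset from 25 to 40 bp downstream. At 23 bp downstream, none of the 155642 members and none of the cytosines of either comparison group had an opposite-strand site. The same held for all 4483257 autosomal CG cytosines of the class 1CG and all 6620461 of CGCH, at any read count. This absence thus belongs to the chosen classes and is not a result on members. In the class 2CG, which was left out by the choice of classes, 32.8% of the 981048 autosomal CG cytosines had an opposite-strand site at 23 bp, 35.2% at 22 bp and 23.7% at 21 bp. The part of the authors' class and read assignment in these shares was not tested.

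**Figure D3:**
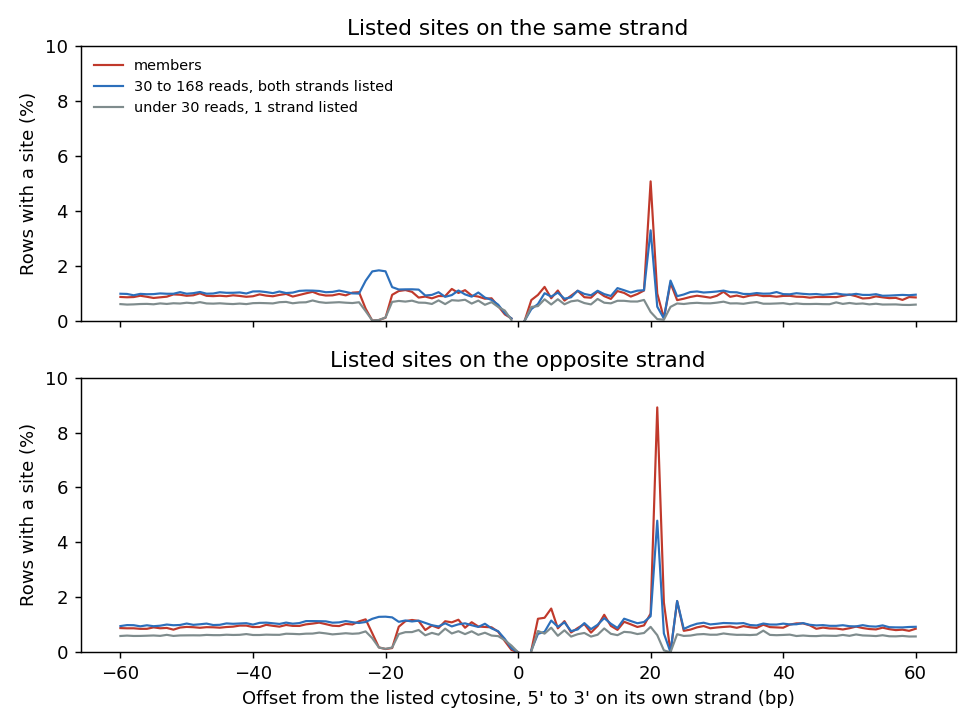
Percent of cytosines with another listed site at each offset (horizontal axis, bp, 5′ to 3′ from the listed cytosine) on the same strand (upper panel) and on the opposite strand (lower panel), for members, both-strand cytosines and low 1-strand cytosines. The cytosine itself and its own partner are left out, the highest point is the facing site at 21 bp with 8.91% of members, and both 1-strand groups are near 0 on the same strand from 22 to 20 bp upstream.

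The facing sites had a median of 40 reads, next to a median of 45 on the members they faced, and 77.7% (77.0 to 78.4) had 30 reads or more. This was shared with both-strand cytosines, where the medians were also 40 and 45 reads and 78.4% had 30 reads or more. For low 1-strand cytosines the medians were 12 and 15 reads, and 2.46% of the facing sites had 30 reads or more. Reads of facing sites thus went with the read limits that chose each group and are given as description. The class of the members' facing sites was 2CG in 69.97% (69.2 to 70.7), CGCH in 17.6% and 1CG in 10.8%. Equal counts on the cytosine and its facing site were found in 3.91% (3.59 to 4.24) for members and 3.70% for both-strand cytosines. Whether reads are shared between a cytosine and its facing site was not tested. The dyad of the facing site was also listed on its other strand in 55.0% (54.2 to 55.8) of cases, against 66.5% (65.9 to 67.0) for the facing sites of both-strand cytosines. Facing sites were more frequent the more reads a member had. Their share was 4.91% at 30 to 34 reads, 13.8% at 50 to 59, 27.9% at 80 to 99 and 41.8% (39.1 to 44.5) at 130 or more. In both-strand cytosines with the same reads the shares were 2.62%, 7.03%, 17.3% and 34.7% (32.5 to 36.95). The bend in the share listed on 1 strand was nearly as large without any cytosine that had such a facing site, with 17.9% at 50 to 59 reads and 39.3% (37.1 to 41.5) at 130 or more.

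Upstream of the members there was a gap. On the same strand, sites at 23 to 20 bp upstream were listed for a mean of 0.140% of members per offset, against 1.72% in both-strand cytosines and 0.942% of members at offsets of 40 to 25 bp upstream. At 22 bp upstream the count was 0 of 155642 members. At 20 bp upstream, where a site would lie 21 bp from the unlisted partner and face it, there were 162 members or 0.104%, against 1.79% of both-strand cytosines. Low 1-strand cytosines had the same gap, with a mean of 0.120%. Both groups were chosen by an unlisted partner, which sites at these offsets would face. The gap therefore cannot be told apart from that choice, and its presence in both groups is no separate support. What the authors' assignment of reads to facing cytosines contributes to the gap was not tested.

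Reads of the missing partner were looked for at cytosines beside it. An opposite-strand site within 3 bp of the partner's position was listed for 3.01% (2.93 to 3.10) of members, 2.09% of both-strand cytosines and 2.13% of low 1-strand cytosines. The members were highest on 19 of 19 autosomes, by less than 1 percentage point overall. Most members therefore had no opposite-strand site listed beside the partner's place. Within 10 bp the shares were 15.1%, 14.2% and 10.7%.

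Members lay among other listed CG dyads. The nearest other listed dyad was a median of 32 bp away, compared with 31 bp for both-strand cytosines and 53 bp for low 1-strand cytosines. Another dyad within 100 bp was listed for 80.9% (80.7 to 81.1) of members, 84.4% of both-strand cytosines and 67.0% of low 1-strand cytosines. The neighbours of members were often listed on both strands. Of all dyads within 500 bp of a member, 51.2% (51.1 to 51.2) were, against 55.8% around both-strand cytosines and 40.8% around low 1-strand cytosines. On 19 of 19 autosomes the members lay between the other groups in this share. Reads per neighbouring dyad followed the same order, with means of 28.2, 30.9 and 19.9 within 500 bp. Pooled over all members, about every other dyad within 500 bp was thus listed on both strands, from 46.7% to 59.5% over the autosomes. The spread over single members was not computed.

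The sides of the members differed slightly. No dyad was listed within 200 bp on the 5′ side, where the cut directed by the missing partner would fall, for 23.03% (22.8 to 23.2) of members. On the 3′ side the share was 20.5% (20.3 to 20.7). Both-strand cytosines had 16.9% and 17.1%, and low 1-strand cytosines 35.2% on either side. The 200 bp on the 3′ side include the facing sites at 21 bp, and those on the 5′ side include the upstream gap described above. The part of these in the difference was not tested. Whether reads can be placed equally well on both sides was not analysed here, as no sequence of the genome build was used.

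The strand of neighbouring 1-strand dyads varied with distance. Within 100 bp of a member, 44.5% (44.3 to 44.8) of the other 1-strand dyads were listed on the member's strand, which was below the 48.3% of both-strand cytosines and the 48.7% of low 1-strand cytosines on 19 of 19 autosomes. Within 1 kb the share was 49.7%, close to equal use of both strands. Pairs of adjacent members showed the arrangement more closely. At distances of 20 to 24 bp, 771 of 858 pairs or 89.9% (87.6 to 91.8) faced each other, and 2.56% were on the same strand. Low 1-strand cytosines at these distances had 20.7% facing pairs and 42.3% diverging pairs. Both cytosines of a pair were chosen by an unlisted partner, and the upstream gap described above covers most of these distances. Opposite-strand sites at 22 to 19 bp upstream were also listed for a mean of only 0.284% of members per offset. The members' facing share therefore cannot be told apart from that choice. The part of this choice in the same-strand share within 100 bp was not tested. At 25 to 60 bp, 42.8% (40.6 to 44.98) of adjacent members shared a strand, 26.1% faced each other and 31.1% diverged. Beyond 200 and up to 500 bp the same-strand share was 52.2% (51.3 to 53.2), and beyond 1 kb and up to 5 kb it was 50.04% (49.6 to 50.5). Between these distances the same-strand share was 46.4% (43.9 to 48.8) beyond 60 and up to 100 bp, 46.7% (45.2 to 48.3) beyond 100 and up to 200 bp, and 51.5% (50.6 to 52.3) beyond 500 bp and up to 1 kb. Same-strand pairs were thus the minority up to 200 bp and slightly the majority from there to 1 kb. Low 1-strand cytosines had the same pattern, nearer to equal use. Their same-strand share was 49.3% at 25 to 60 bp and 50.4% beyond 200 and up to 500 bp.

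**Figure D4:**
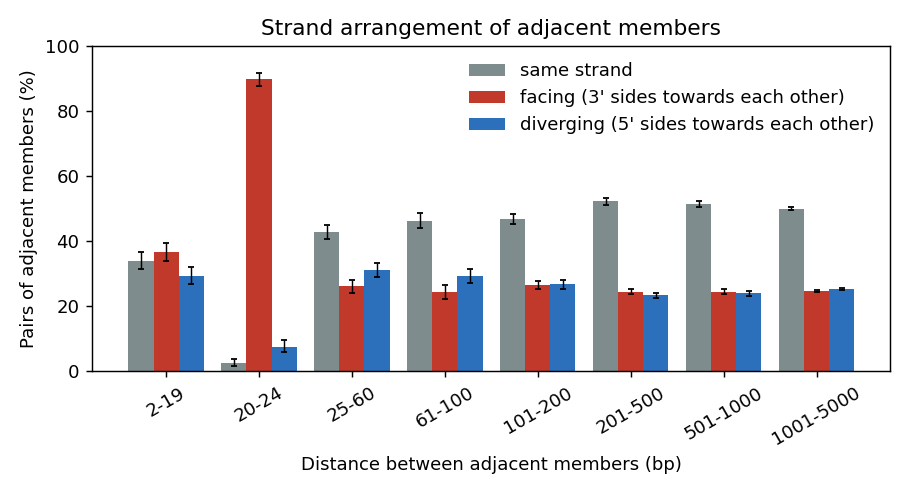
Percent of pairs of adjacent members (vertical axis) that lay on the same strand, faced each other or diverged, by the distance between them (horizontal axis, bp). Bars on the columns are exact 95% intervals, facing pairs make up 89.9% at 20 to 24 bp, and same-strand pairs are at 50.04% between 1 and 5 kb. The facing share at 20 to 24 bp cannot be told apart from the choice of members by an unlisted partner.

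Members were spread over all autosomes. Adjacent members were a median of 4300 bp apart, 37.1% (36.9 to 37.4) had another member within 1 kb, and 22.7% of the 24731 autosomal windows of 100 kb held none. These windows were counted from position 1, so they include unsequenced chromosome starts. The coefficient of variation of members per 100 kb window was 1.31, against 1.77 for both-strand cytosines, which were more unevenly spread. In 1 kb bins, members stood alone in 119236 cases, and 14457 bins held 2 members, 2000 held 3, 323 held 4, 34 held 5 and 5 held 6.

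The share listed on 1 strand followed the local density of listed dyads. In the 10% of windows with 0 to 49 dyads per 100 kb, 73.2% (69.8 to 76.5) of the CG cytosines in the read range were listed on 1 strand, and these were 514 members. In windows with 184 to 272 dyads the share was 35.5%, and in the densest 10%, with 789 to 1668 dyads, it was 18.05% (17.9 to 18.2). These densest windows still held 37.8% of all members, with a mean of 23.7 per window. A dyad was counted once, whether listed on 1 strand or on both. Dyad density and the share come from the same listing, so the relation is a description.

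**Figure D5:**
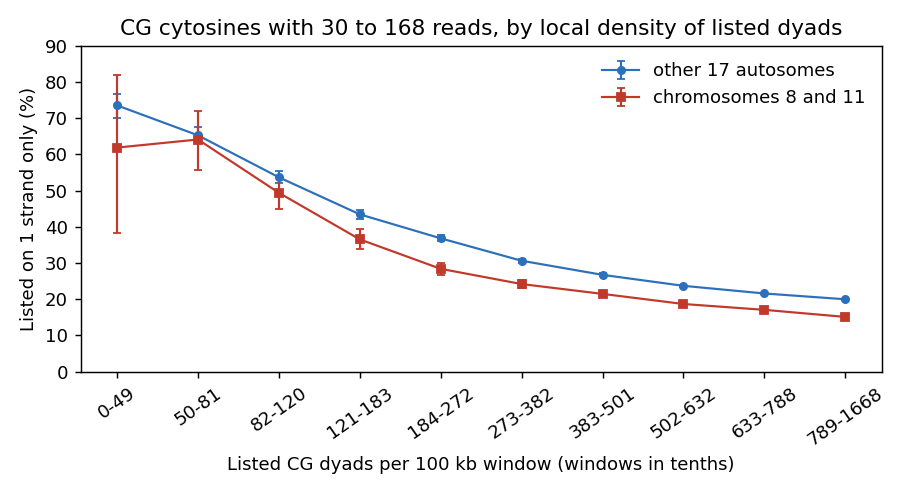
Percent of CG cytosines in the read range that were listed on 1 strand (vertical axis) in 10 equal parts of the 100 kb windows ordered by the number of listed CG dyads (horizontal axis), for chromosomes 8 and 11 and for the other 17 autosomes. Bars are exact 95% intervals, and chromosomes 8 and 11 lie lower in 10 of 10 parts, with separate intervals in 7.

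Chromosomes 11 and 8 had the most members and the lowest shares. Chromosome 11 held 19145 members, or 161.1 per Mb, and chromosome 8 held 14748, or 114.6 per Mb. The other 17 autosomes had 57.3 ± 10.4 members per Mb (SD, n = 17 chromosomes), and chromosome 19 led these with 78.95. The share of CG cytosines in the read range that were listed on 1 strand was 15.96% (15.8 to 16.2) on chromosome 11 and 17.8% (17.5 to 18.02) on chromosome 8. On the other 17 it was 23.6% ± 0.890 (SD, n = 17 chromosomes), from 22.2% on chromosome 17 to 25.02% on chromosome 18. Chromosomes 8 and 11 also differed from the rest within the same ranges of dyad density. These ranges are wide, and density within a range was not matched. In windows with 789 to 1668 dyads the share was 15.1% (14.9 to 15.3) on them and 19.98% (19.8 to 20.2) elsewhere, and in windows with 184 to 272 dyads 28.4% (26.7 to 30.1) and 36.8% (36.03 to 37.6). Mean reads per listed CG cytosine were 17.6 for chromosome 11, 16.4 for chromosome 8 and 12.5 to 15.3 for the other 17 autosomes. The part of this depth in the difference was not tested.

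Coordinates are those of mm9, counted from 1, and no gene names are given because no annotation of that build was used here. Of the 10 windows of 100 kb with the most members, 9 lay on chromosomes 8 and 11. The first was chromosome 11 from 117900001 to 118000000, with 74 members among 594 CG cytosines in the read range, or 12.5%. The second was chromosome 11 from 120100001 to 120200000, with 73 members among 375, or 19.5%. Chromosome 8 from 123000001 to 123100000 had 70 members and its neighbour from 122900001 to 123000000 had 69. Chromosome 11 followed with 68 from 76100001 to 76200000, 67 from 116000001 to 116100000, 63 from 115900001 to 116000000 and 62 from 77600001 to 77700000. Chromosome 8 from 119800001 to 119900000 had 63. The remaining window, chromosome 17 from 6400001 to 6500000, stood apart from these. It had 66 members among 223, or 29.6%, and 613 listed dyads, where the other 9 windows had 1220 to 1668 dyads and shares of 12.5% to 19.5%.

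The 5 bins of 1 kb with 6 members each show what such stretches look like. On chromosome 8 from 8483001 to 8484000, all 6 CG cytosines of the classes 1CG and CGCH in the read range were members. The minus-strand cytosines at 8483099, 8483218, 8483278 and 8483834 had 41, 35, 46 and 41 reads, and the plus-strand cytosines at 8483243 and 8483805 had 73 and 32. Among the other CG cytosines between them, the plus-strand cytosine at 8483289 had 34 reads and its partner 19, while 8483502 with 16 reads and 8483586 with 9 had no listed partner. On chromosome 5 from 115123001 to 115124000, 6 of 9 were members, and 4 of them followed each other without another listed site in between. These were the minus-strand cytosines at 115123802 with 77 reads and 115123883 with 41, and the plus-strand cytosines at 115123953 with 30 and 115123979 with 40. Both other members, at 115123080 and 115123136, lay on the minus strand with 40 and 41 reads.

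The bin of chromosome 10 from 67910001 to 67911000 holds facing members at close range. Its 6 members all lay between 67910890 and 67910935. The plus-strand members at 67910890 and 67910902 had 31 and 39 reads, and the minus-strand members at 67910911, 67910923, 67910927 and 67910935 had 41, 35, 65 and 103. Plus-strand CG cytosines of the class 2CG lay between the plus-strand members at 67910894 and 67910898 with 23 and 19 reads, so that listed CG cytosines followed each other every 4 bp. The members at lower positions were thus plus-strand cytosines and those at higher positions minus-strand cytosines. At 21 bp, the members at 67910890 and 67910902 faced the members at 67910911 and 67910923. The members at 67910927 and 67910935 faced, at the same distance, plus-strand CG cytosines at 67910906 and 67910914 that were not members. In the remaining bins, chromosome 11 from 35860001 to 35861000 had 6 members among 14 and chromosome 11 from 117895001 to 117896000 had 6 among 20, with 39 and 26 listed dyads.

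Members were seldom isolated. No listed site of any kind lay within 1 kb of 693 members, or 0.445%. The most isolated were the plus-strand cytosine at position 95700930 of chromosome 5, with 35 reads and 92255 bp to the nearest listed site, and the minus-strand cytosines at 61272337 and 61115761 of chromosome 4, with 39 and 33 reads at 17730 and 14506 bp. They were followed by plus-strand cytosines at 12739375 of chromosome 13 and 23276319 of chromosome 17, with 38 and 41 reads at 13059 and 9964 bp. At the other end, the 5 members with the most both-strand dyads within 500 bp all lay on chromosome 17 between 39982031 and 39985209. They had 31 to 57 reads, and 62 to 77 both-strand dyads around each. The member at 39985209, with 55 reads on the minus strand, had 77 dyads within 500 bp that were listed on both strands.

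Of the 29 members at the upper limit of reads, the first 5 in genome order were at 173819083 and 194518958 on chromosome 1, at 104825920 and 116841384 on chromosome 2, and at 3018495 on chromosome 9. In 4 of these 5 the nearest listed site was 6 to 22 bp away, and for the member at 194518958 it was 128 bp away. Each had 3 to 6 listed dyads within 500 bp, of which 1 or 2 were listed on both strands, fewer than the median of 9 listed dyads around all members.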

How the data were processed

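Per the labels' protocols, 100 ng of E14 DNA per library was glucosylated, cut with AbaSI, captured through a biotinylated adapter, amplified for 16 PCR cycles and sequenced. Build mm9, Bowtie and CASAVA 1.8.2 are named, per the submitters' processing notes. The sources used here do not state filters, the treatment of PCR copies, the rule that assigned reads to cytosines or how the 2 libraries were joined. The authors deposited whole-number read counts, 1 per listed cytosine, and no scaling is stated. Counts were used as deposited.

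The read range was 30 to 168 reads. A partner was taken as unlisted when the other cytosine of the CG had no entry. Dyads, neighbours and offsets were found by exact position, leaving out a cytosine's own dyad. All values are descriptive. The labels mention no molecular identifiers, so amplified reads can repeat a molecule, and intervals cover counting error only. Alternatives were other read limits, single classes, chromosomes 8 and 11 left out, and other distances. Analyses used Python 3.11.15, numpy 2.4.6, pandas 2.3.3, scipy 1.17.1 and matplotlib 3.10.9. The functions were tested on 60000 simulated dyads. Among simulated cytosines in the read range, the share listed on 1 strand was 30.2% as planted and 30.2% as recovered. The members, comparisons and rules were chosen with earlier results of these data known. Named regions are the 10 windows of 100 kb and 5 bins of 1 kb with the most members, chromosome ends left out, and 5 members each for isolation, for 168 reads and for both-strand dyads within 500 bp. The planned analyses of sequence and of gene features were not run, as no mm9 genome or annotation was used.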

Additional observations from a re-analysis of the deposited data

Results flagged for a closer look

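The same conditions were applied to the X chromosome, which the comparisons above do not use. On it, 690 of 1683 CG cytosines of the same classes and read range were listed on 1 strand, a share of 40.998% (38.6 to 43.4), above the 25.02% of the highest autosome. X had 4.22 such cytosines per Mb, against 43.3 to 161.1 on the autosomes, and 15.9% of them had a facing site at 21 bp. On the autosomes the share was higher where fewer dyads were listed. It was 18.05% in the densest windows and 53.2% in windows with 82 to 120 dyads per 100 kb. X held 135542 listed dyads, and its share was not compared with autosomal windows of like density. The difference was not tested, since the table has no replicates.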

How the results depend on the processing

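Of 111 alternative values for 13 results, 40 stayed within the spread and 71 moved. For shares the spread was their exact interval, for the number of members a factor of 1.5, and otherwise the SD over autosomes for the distance (2.36 bp), the coefficient of variation (0.113) and the chromosome 11 ratio (0.175). Counting intervals are narrow here, so small shifts count as moves. With lower limits of 20, 40 and 60 reads, members numbered 484320, 61948 and 16249, and the share on 1 strand was 25.6%, 20.4% and 23.2%. In the same order, the CGCH share was 68.6%, 73.6% and 73.5%, partners with 2 to 5 reads 9.09%, 6.36% and 6.73%, and neighbours listed on both strands 49.1%, 51.5% and 48.7%. Members with another member within 1 kb were 63.9%, 20.02% and 8.41%, the coefficient of variation 1.15, 1.43 and 1.74, and the ratio of members per Mb on chromosome 11 to the median autosome, 2.70 in the main analysis, 2.11, 3.16 and 3.24. The chromosome 11 share was 19.5%, 14.1% and 13.5%, and facing sites 4.76%, 14.2% and 25.03%. At 40 and 60 reads, sites near the partner were 2.88% and 2.46% and the nearest dyad lay at 29 and 21 bp, and at 60 reads the plus-strand share was 50.3%. Without an upper limit the share was 21.7% and facing sites 9.25%. In 1CG alone there were 44226 members, a share of 19.5%, partners with 2 to 5 reads 6.62%, near sites 2.87%, a distance of 28 bp, neighbours on both strands 52.4%, another member within 1 kb 16.1%, a coefficient of 1.55, a chromosome 11 share of 14.6% and facing sites 10.6%. In CGCH alone the share was 22.5%, low partners 7.52%, neighbours on both strands 50.7%, another member 27.8%, the chromosome 11 share 16.6% and facing sites 8.24%. Without chromosomes 8 and 11 the share was 23.5%, CGCH 71.9%, low partners 7.96%, neighbours on both strands 48.8%, another member 33.5% and facing sites 9.48%. With partners under 5 reads taken as unlisted, the share was 25.1%, neighbours on both strands 51.3% and the chromosome 11 share 18.7%. Counting each dyad once gave a share of 23.8%. Counting members with an opposite-strand site within 3 bp of the partner as having a listed partner gave 20.9%. Near sites were 0.0687% within 1 bp and 15.1% within 10 bp. Neighbours on both strands were 51.5% within 100 bp and 50.4% within 1 kb, and another member lay within 100 bp for 7.26% and within 5 kb for 73.4%. In windows of 1 Mb the coefficient was 1.06. The cause of these shifts was not tested. The alternatives for the offsets and for the read bins were chosen after seeing the data. No paired analysis was possible because the table pools the libraries in 1 column, and leaving out a replicate was not run for the same reason. Since the minimum for listing is unknown, an unlisted partner with few reads and an unmodified one cannot be told apart.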

Other observations

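In mitochondrial DNA, 2 of 84 CG cytosines of the same classes and read range were listed on 1 strand, or 2.38% (0.290 to 8.34). On the Y chromosome it was 6 of 10.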
